A study of Mus musculus with 12 samples.

Results

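The genes described here carry fatty acids into mitochondria, oxidise them, use ketone bodies and control these processes in the mouse retina. They were taken by name, as the rows of the gene table whose identifiers belong to Cpt1a, Cpt2, Acadm, Acadl, Hadha, Oxct1, Ppara, Ppargc1a and Angptl4. All 9 were found among the 53707 genes of the table, and all 9 were among the 21061 genes left by the filter on low counts. RNA came from retinas of wild-type C57BL/6J mice at postnatal day 28, freed of retinal pigment epithelium (RPE) and sclera and kept as explants for 48 h in Neurobasal-A medium with B27, N2 and antibiotics. One condition held 5 mM glucose and the other 25 mM glucose, and everything else in the medium was shared. Each condition had 3 biological replicates, and each of these had 2 technical replicates, so 12 libraries of total RNA were sequenced. By the labels, batch 1 holds technical replicate 1 of every sample and batch 2 holds technical replicate 2. All libraries came from cultured tissue, without the blood flow and pigment epithelium that feed a retina in the animal, and the labels do not say whether a replicate was one retina or several.

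Fatty acids are activated to acyl-CoA, handed to carnitine for passage through the mitochondrial membranes and shortened by a cycle of dehydrogenation, hydration, a further dehydrogenation and thiolysis. Ketone bodies made elsewhere, mainly in liver, enter through monocarboxylate transporters and are turned back to acetyl-CoA in mitochondria. The nuclear receptor PPARα, switched on by fatty acids, drives many of these genes together with the coactivator PGC-1α. Photoreceptors are best known for aerobic glycolysis and can also take up and oxidise fatty acids, and the RPE, removed here, burns lipid from shed outer segments and releases ketone bodies towards the retina.

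Library totals ranged from 14815285 to 36692484 estimated counts, and 417 of the genes tested (1.98%) passed a false discovery rate (FDR) of 0.05 between 25 mM and 5 mM glucose in the quasi-likelihood test of edgeR. The sources used here do not say whether technical replicates were repeat libraries or repeat extractions, and the pair from one biological replicate could lie far apart: in 25 mM replicate 2 the summed CPM (counts scaled to library size) of 15 rod markers were 18490 in technical replicate 1 and 5920 in technical replicate 2, and those of 12 vascular endothelial markers were 386 and 1188. Over the biological replicates the rod marker sum was 3833 to 6200 CPM at 5 mM and 9931 to 13570 at 25 mM. The endothelial sum was 1356 to 2480 against 494 to 1126, the pericyte and smooth muscle sum 423 to 558 against 251 to 429, the microglial sum 303 to 443 against 127 to 254, and the Mueller glia sum 3950 to 4992 against 2685 to 3855. The 11 RPE and pigment cell markers summed to 9.736 to 12.96 CPM against 7.198 to 9.27. Of these, 6 were under 1 CPM in every replicate: Rpe65, Best1, Lrat, Mlana, Pmel and Tyr. The other listed markers were Ttr, Rgr, Rdh5, Tyrp1 and Dct. The median log2 fold change was -1.14 over 10 microglial genes, -0.14 over 12 genes of Mueller glia and -0.505 over 8 RPE genes. In such bulk samples fewer cells of a type and less RNA per cell cannot be told apart, and the part of these shifts in the values that follow was not tested unless a value says otherwise.

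None of the 9 genes passed an FDR of 0.05, against 1.98% of all genes tested. The 5 genes with the largest differences passed an FDR of 0.10, as did 14.4% of all genes, and the same number had an unadjusted p under 0.05, against 28.7%. Ppara and Ppargc1a, the receptor and the coactivator, and Acadm were higher at 25 mM glucose in all 3 replicates than in any at 5 mM, and Acadl, Hadha and Angptl4 were lower. These 6 genes without overlap (5 when libraries were scaled by their totals alone) compare with 31.8% of all genes tested, of which 16% were higher and 15.8% lower. Cpt1a, Cpt2 and Oxct1 overlapped between the conditions. The median log2 fold change of the 9 genes was 0.15, beside -0.00955 over all genes. Of all genes tested 10386 had log2 fold changes above 0 and 10675 below.

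The calls depended on the test. The Wald test of DESeq2 called 5 of the 9 genes at an FDR of 0.05, Acadm, Acadl, Ppara, Ppargc1a and Angptl4, while it called 16.6% of all genes. A correction of the edgeR fit for GC content and transcript length called 5 of 9 as well, beside 12.3% of all genes, and leaving out 5 mM replicate 1 also gave 5 of 9, beside 26.6%. The GC and length correction moved the median log2 fold change of all genes tested to 0.0923.

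**Figure D1:**
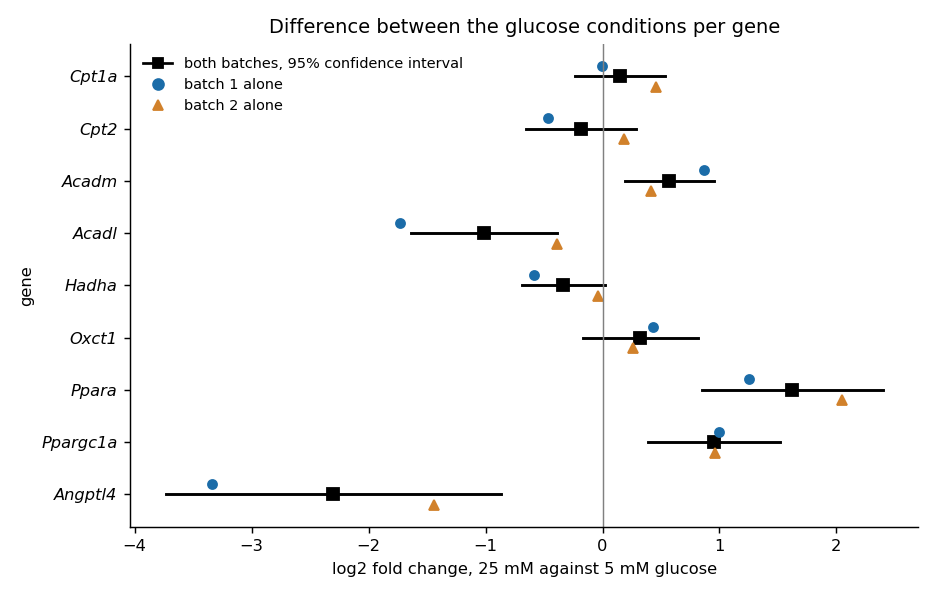
Log2 fold change of each gene, 25 mM against 5 mM glucose, as black squares with their 95% confidence interval over 3 against 3 biological replicates (edgeR), with blue circles for batch 1 alone and orange triangles for batch 2 alone. The intervals of Acadm, Acadl, Ppara, Ppargc1a and Angptl4 leave out 0, and Acadl lies at -1.73 in batch 1 and -0.39 in batch 2.

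Levels of different genes were compared per transcript length, as TPM, estimated counts divided by transcript length and scaled to the library (mean ± SD, n = 3). At 5 mM glucose Hadha led with 110 ± 12.8 TPM, followed by Acadl at 96.6 ± 5.31, Oxct1 at 78.4 ± 17.6, Acadm at 57.8 ± 4.63, Cpt1a at 50.4 ± 7.52, Angptl4 at 35.8 ± 15.8 and Cpt2 at 25.4 ± 1.57. Each of these neighbours overlapped within 1 SD. Ppargc1a at 8.98 ± 1.8 TPM and Ppara at 0.952 ± 0.211 lay below by more than 1 SD on both sides. At 25 mM the order was Oxct1 at 108 ± 21.5 TPM, Hadha at 94.1 ± 7.42, Acadm at 92.4 ± 15.5, Cpt1a at 58.7 ± 9.87, Acadl at 51.6 ± 15.9, Cpt2 at 23.8 ± 2.96, Ppargc1a at 19.4 ± 6.02, Angptl4 at 7.78 ± 6.25 and Ppara at 2.97 ± 0.62. Only 2 steps in that order, from Acadm to Cpt1a and from Acadl to Cpt2, exceeded 1 SD on both sides. Acadl thus moved from the second place to the fifth and Acadm from the fourth to the third, while Ppara stayed last.

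**Figure D2:**
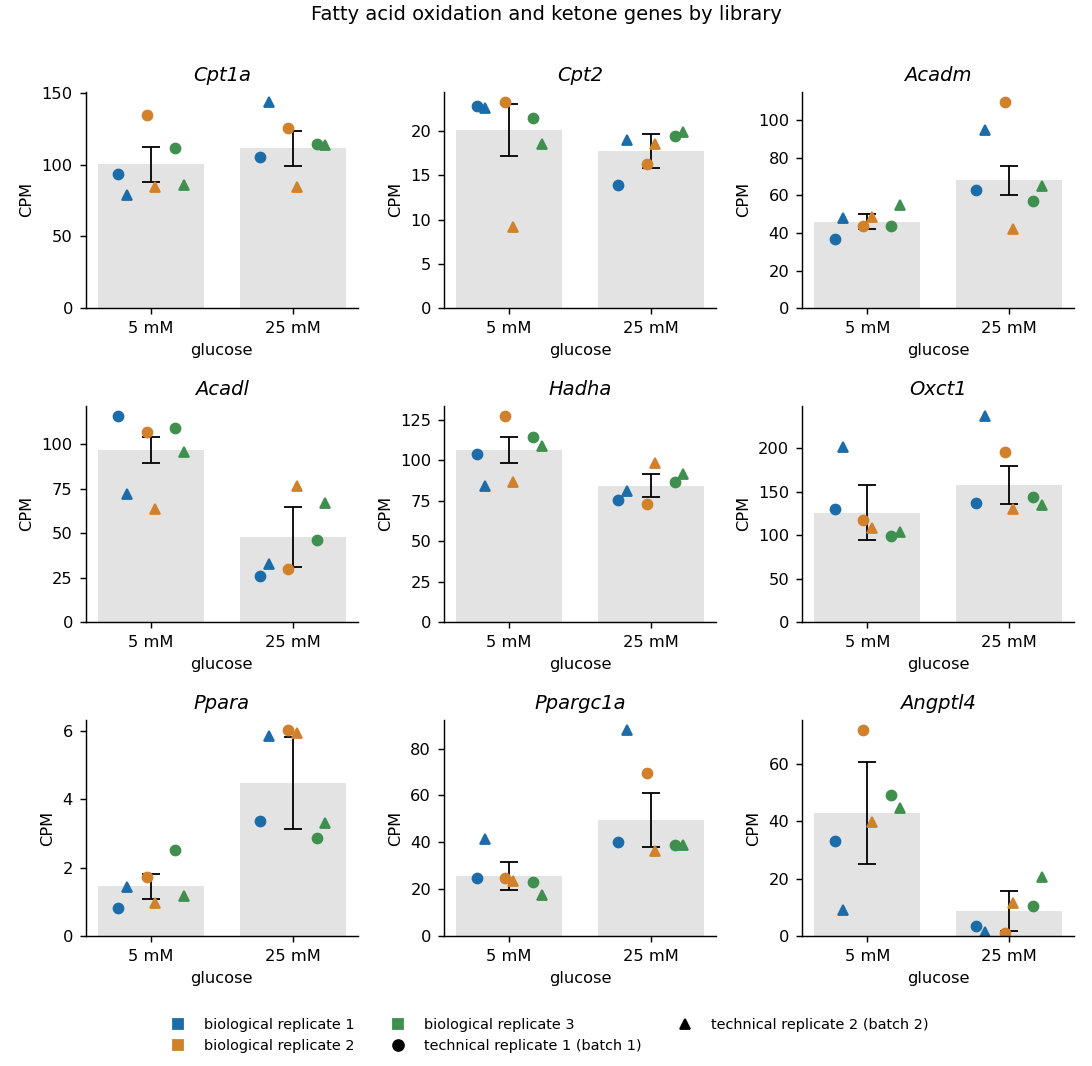
CPM of each gene in the 12 libraries, with colour for the biological replicate and circles or triangles for its first or second technical replicate. Grey bars and error bars give the mean ± SD of the 3 biological replicates, and Ppara is the gene whose 6 libraries at 25 mM all lie above the 6 at 5 mM.

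The 2 shuttle transferases of the group, Cpt1a and Cpt2, had the smallest log2 fold changes of the 9 genes. Cpt1a, on chromosome 19 at 3322334 to 3385733 of GRCm38, encodes the outer membrane carnitine palmitoyltransferase, the rate-limiting gate of mitochondrial fatty acid oxidation. Its level was 88.9, 113 and 98.7 CPM in the 3 replicates at 5 mM and 121, 97.7 and 115 at 25 mM, so the conditions overlapped. The log2 fold change was 0.15 with a 95% confidence interval of -0.23 to 0.54 (SE 0.17, edgeR, FDR 0.567). In batch 1 the 5 mM libraries held 93.8 to 135 CPM and the 25 mM libraries 105 to 126, whereas in batch 2 they held 79.0 to 85.5 and 84.8 to 144.

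Cpt2, on chromosome 4, encodes the inner membrane transferase that gives acyl groups back to CoA. It was measured at 23.1, 17.2 and 20.1 CPM at 5 mM and at 16.0, 17.3 and 19.8 CPM at 25 mM, with a log2 fold change of -0.19 (interval -0.66 to 0.28, edgeR, FDR 0.563). Among libraries the lowest was technical replicate 2 of 5 mM replicate 2 with 9.14 CPM, and the other 11 held 13.95 to 23.28 CPM. The intervals of both shuttle enzymes thus leave room for differences of either sign. Among the other shuttle genes, the carnitine-acylcarnitine translocase Slc25a20 had a log2 fold change of -0.41 (SE 0.23, edgeR, FDR 0.26) and the brain form Cpt1c one of -0.44 (SE 0.28, FDR 0.319).

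Acadm and Acadl, which catalyse the first step of beta-oxidation on chains of different length, differed in opposite directions. Acadm, the medium-chain acyl-CoA dehydrogenase on chromosome 3, held 41.9, 46.1 and 49.8 CPM at 5 mM and 76.9, 65.9 and 61.95 CPM at 25 mM glucose. All 3 replicates at 25 mM lay above those at 5 mM. The log2 fold change was 0.57, a 1.49-fold higher level (SE 0.17, interval 0.19 to 0.95, edgeR, FDR 0.0826). Of the 12 libraries, the second technical replicate of 25 mM replicate 2 fell among the 5 mM libraries with 42.3 CPM, and its partner from batch 1 was the highest of all with 110 CPM.

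Acadl, the long-chain acyl-CoA dehydrogenase on chromosome 1, held 99.04, 88.6 and 103 CPM at 5 mM and 28.4, 57.6 and 57.8 CPM at 25 mM. Every 25 mM replicate lay below every 5 mM replicate, with replicate 1 the lowest. Its level was 2.02-fold lower at 25 mM, a log2 fold change of -1.01 (SE 0.27, interval -1.64 to -0.39, edgeR, FDR 0.0735). The batches differed: the libraries spanned 107 to 116 CPM against 25.7 to 46.2 in batch 1, and 63.5 to 95.6 against 32.5 to 76.4 in batch 2. The test of that difference in edgeR gave 1.29 on the log2 scale (SE 0.32) at an unadjusted p of 0.00391 and an FDR of 0.188. Without batch 2 the FDR of Acadl was 0.00852, and without batch 1 it was 0.604.

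Of the related dehydrogenases, the very-long-chain enzyme Acadvl had 32.6, 60.5 and 55.1 CPM at 5 mM and 34.3, 26.5 and 40.4 at 25 mM (log2 fold change -0.55, SE 0.27, edgeR, FDR 0.214). The short-chain enzyme Acads held 1.59, 7.81 and 4.87 CPM at 5 mM and 1.6, 1.37 and 1.63 at 25 mM, so 5 mM replicate 1 lay among the 25 mM values. Its log2 fold change, -1.63 (SE 0.52, edgeR, FDR 0.0977), was the lowest of the 16 genes of mitochondrial beta-oxidation and Acadm's was the highest.

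The 250 bases before the RefSeq start of 4 genes (build GRCm38.p6, written on the gene's strand from 5′ to 3′) are given for Acadm and Acadl, which differed in opposite directions, for Ppara, which had the largest higher level, and for Cpt1a, which overlapped between conditions. Capitals mark AGGTCA, the core recognised by many nuclear receptors including PPARα, and GGGCGG, the GC box bound by SP1, on either strand. Cpt1a lies at chr19:3323051-3323300 (plus strand), Acadm at chr3:153944644-153944893 (minus), Acadl at chr1:66863310-66863559 (minus) and Ppara at chr15:85735526-85735775 (plus).
Cpt1a: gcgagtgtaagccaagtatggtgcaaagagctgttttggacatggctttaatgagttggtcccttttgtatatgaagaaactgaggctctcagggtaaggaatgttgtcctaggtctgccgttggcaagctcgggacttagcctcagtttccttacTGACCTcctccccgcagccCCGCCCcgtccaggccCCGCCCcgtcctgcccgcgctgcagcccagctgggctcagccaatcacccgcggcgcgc
Acadm: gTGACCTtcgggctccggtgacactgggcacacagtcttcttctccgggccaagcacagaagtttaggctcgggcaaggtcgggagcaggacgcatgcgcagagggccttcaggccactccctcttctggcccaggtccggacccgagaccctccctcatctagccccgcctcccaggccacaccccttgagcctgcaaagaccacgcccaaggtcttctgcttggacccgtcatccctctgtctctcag
Acadl: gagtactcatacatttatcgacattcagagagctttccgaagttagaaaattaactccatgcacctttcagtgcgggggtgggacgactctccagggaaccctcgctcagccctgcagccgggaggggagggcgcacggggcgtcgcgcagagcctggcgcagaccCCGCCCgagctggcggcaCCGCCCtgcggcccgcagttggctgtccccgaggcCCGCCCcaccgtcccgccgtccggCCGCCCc
Ppara: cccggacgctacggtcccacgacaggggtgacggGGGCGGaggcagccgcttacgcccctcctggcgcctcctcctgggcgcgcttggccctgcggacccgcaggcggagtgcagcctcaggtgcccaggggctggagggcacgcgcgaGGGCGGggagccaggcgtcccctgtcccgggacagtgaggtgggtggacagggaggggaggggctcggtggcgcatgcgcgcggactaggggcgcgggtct

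RefSeq gave a promoter for 8 of the 9 genes. Over 300 bases, from 250 before to 50 after the start, the nuclear receptor core was found in Cpt1a and Acadm, and in 16.3% of 32851 mouse promoters. The GC box was found in Cpt1a, Cpt2, Acadl, Hadha and Ppara, and in 35.7% of all promoters. The cAMP response element TGACGTCA, through which Ppargc1a is known to be induced, matched in none of the 8 and in 1.79% of all, and the direct repeat of that core spaced by 1 base, AGGTCANAGGTCA, in none of the 8 and 0.0396% of all. These exact letters are a narrow search, and both strands were read. GC content ranged from 48.7% in Ppargc1a to 74.7% in Ppara, beside a median of 52.7% over all promoters.

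Hadha encodes the alpha subunit of the mitochondrial trifunctional protein, which carries out the last steps of long-chain oxidation with the beta subunit Hadhb. Both genes lie head to head on chromosome 5 with 85 bases between their annotated starts. Hadha held 97.0, 110 and 112 CPM at 5 mM and 76.2, 86.9 and 90.0 CPM at 25 mM, with no overlap. The difference was small, at -0.34 on the log2 scale (SE 0.15, interval -0.69 to 0.02, edgeR, FDR 0.19). Hadhb held 122, 84.8 and 92.2 CPM at 5 mM and 77.3, 120 and 95.1 CPM at 25 mM, with a log2 fold change of -0.03 (SE 0.22, edgeR, FDR 0.94). In batch 1 Hadha was lower at 25 mM by -0.58 on the log2 scale and in batch 2 by -0.04, and that difference between the batches had an unadjusted p of 0.0484 (edgeR, FDR 0.304). Exons of Hadha share 75 bases with Garem2 on the opposite strand, and the use of strand in counting is not given in the sources used here.

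For ketone bodies, Oxct1 on chromosome 15 encodes succinyl-CoA:3-ketoacid CoA transferase, the enzyme that commits acetoacetate to oxidation. Oxct1 held 162, 114 and 102 CPM at 5 mM and 181, 151 and 140 CPM at 25 mM, and the highest 5 mM replicate lay above the 2 lowest at 25 mM. The log2 fold change of 0.32 (SE 0.21, interval -0.17 to 0.81, edgeR, FDR 0.339) stayed within the spread of the replicates. Technical replicate 2 of that sample held 201 CPM, while the other 5 libraries at 5 mM held 98.8 to 130. Oxct1 stood at 0.54 (edgeR, FDR 0.0477) when 5 mM replicate 1 was left out, where 26.6% of all genes passed an FDR of 0.05. That was the 1 setting of 25 in which Oxct1 passed. Exons of Oxct1 share 467 bases with BC037032 on the other strand.

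Of the other genes of ketone use none had an FDR under 0.05 in edgeR, and 1.98% of all genes did. Bdh1, the hydroxybutyrate dehydrogenase, had a log2 fold change of 0.03 (SE 0.25, edgeR, FDR 0.946) and Acat1, the mitochondrial acetoacetyl-CoA thiolase, one of -0.26 (SE 0.15, FDR 0.292). The replicates of Acat1 did not overlap, with 91.7, 74.4 and 77.8 CPM at 5 mM and 68.5, 66.2 and 69.0 CPM at 25 mM. The list's highest was the monocarboxylate transporter Slc16a7 with 15.7, 7.85 and 9.00 CPM at 5 mM and 26.9, 27.6 and 10.8 CPM at 25 mM (log2 fold change 1.00, SE 0.41, edgeR, FDR 0.156). The lowest was Aacs, a cytosolic acetoacetyl-CoA synthetase, at -0.39 (SE 0.45, FDR 0.585).

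Ppara, on chromosome 15, encodes PPARα. Its estimated counts were low, 19 to 133 per library. It held 1.12, 1.403 and 1.83 CPM at 5 mM and 4.47, 5.80 and 3.12 CPM at 25 mM glucose. The 25 mM level was 3.08-fold higher, with a log2 fold change of 1.62 (SE 0.34, interval 0.85 to 2.40, edgeR, FDR 0.0525). Ppara was also the one gene of the 9 whose 12 libraries did not overlap, since the highest at 5 mM reached 2.52 CPM and the lowest at 25 mM 2.86 CPM. Such a separation was seen in 4.72% of the 18725 genes tested over libraries, 3.27% being higher at 25 mM. Batch 1 gave 1.25 and batch 2 gave 2.05 on the log2 scale. Its relatives differed in other ways: Ppard, the widely expressed PPAR, held 5.29, 25.8 and 18.6 CPM at 5 mM and 8.65, 5.67 and 11.3 CPM at 25 mM (log2 fold change -0.95, SE 0.53), and Pparg, the fat cell regulator, remained under 1 CPM in every replicate.

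Ppargc1a, on chromosome 5, encodes PGC-1α, a coactivator of PPARs and oestrogen-related receptors that drives mitochondrial gene expression. It held 32.3, 24.4 and 20.2 CPM at 5 mM and 62.1, 47.5 and 39.2 CPM at 25 mM. All 3 replicates at 25 mM were above those at 5 mM, and replicate 1 was the highest in both conditions. The level was 1.93-fold higher, a log2 fold change of 0.95 (SE 0.25, interval 0.39 to 1.52, edgeR, FDR 0.0711). Both batches gave nearly the same value, 1.00 and 0.96, and their difference was -0.02 (SE 0.54). The related coactivator Ppargc1b had 3.07, 8.10 and 5.55 CPM at 5 mM and 10.1, 4.27 and 9.00 CPM at 25 mM (log2 fold change 0.48, SE 0.44, edgeR, FDR 0.479). Among the receptors that PGC-1α serves, Esrra stood at -0.21 (SE 0.35), Esrrb at 0.69 (SE 0.25) and Esrrg at 1.03 (SE 0.43), the last with overlapping replicates.

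Angptl4, on chromosome 17, encodes a secreted inhibitor of lipoprotein lipase that is induced by fatty acids through PPARs and by low oxygen. It showed the largest difference of the 9 genes and the widest spread. It held 23.4, 58.0 and 47.1 CPM at 5 mM and 2.46, 7.50 and 16.1 CPM at 25 mM. The replicates did not overlap, but the highest at 25 mM and the lowest at 5 mM were close. The level was 4.93-fold lower, a log2 fold change of -2.30 (SE 0.62, interval -3.73 to -0.87, edgeR, FDR 0.0741). Over libraries the values ran from 9.21 to 71.7 CPM at 5 mM and from 1.13 to 20.6 CPM at 25 mM, so they overlapped. Batch 1 alone gave -3.34 (edgeR, FDR 0.0172) and batch 2 alone -1.44 (FDR 0.488), and the test of their difference gave 1.90 (SE 0.99, unadjusted p = 0.0929, FDR 0.378).

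The enzyme that Angptl4 inhibits was lower as well. Lpl, lipoprotein lipase, held 99.8, 140 and 125 CPM at 5 mM and 44.2, 65.1 and 52.8 CPM at 25 mM. It fell by 1.17 on the log2 scale (SE 0.21, edgeR, FDR 0.04) and was the only gene of the 10 pathway lists under an FDR of 0.05, where 1.98% of all genes were. In batch 1 it stood at -1.54 (edgeR, FDR 0.00815) and in batch 2 at -0.65 (FDR 0.407). The call of Lpl was also lost with 25 mM replicate 2 from its second technical replicate alone (FDR 0.129), and without 5 mM replicate 2 or 3 or 25 mM replicate 1 or 2, where 0 genes were called. Of the 10 tested genes of lipoprotein lipase and lipolysis 9 had log2 fold changes below 0, with a median of -0.93, and -0.48 once corrected for GC content and length. The lowest with at least 1 CPM was Pnpla2, the adipose triglyceride lipase, at -1.38 (SE 0.47, edgeR, FDR 0.109). The highest was the lipoprotein receptor Vldlr, which supplies fatty acids to photoreceptors, at 0.86 (SE 0.22, FDR 0.0705) with 138, 89.6 and 94.7 CPM at 5 mM and 227, 195 and 161 CPM at 25 mM.

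Levels of Angptl4 and Acadl were set beside the endothelial marker sum in the same libraries. The 3 libraries lowest in Angptl4, technical replicates 1 and 2 of 25 mM replicate 1 and technical replicate 1 of 25 mM replicate 2, held 3.51, 1.497 and 1.13 CPM of it, 25.7, 32.5 and 29.7 CPM of Acadl, and endothelial sums of 440, 574 and 386 CPM. These libraries were also the lowest of the 12 in the microglial sum, with 122, 137 and 138 CPM. The same held for the Mueller glia sum, with 2482, 3032 and 2466 CPM. In 5 mM replicate 1 the first technical replicate held 33.0 CPM of Angptl4 and 116 of Acadl beside an endothelial sum of 1789, and the second held 9.21 and 72.1 beside 707. Libraries with like sums could differ: technical replicate 2 of 5 mM replicate 2 held 39.7 CPM of Angptl4 and 63.5 of Acadl at a sum of 1381, and technical replicate 2 of 25 mM replicate 3 held 20.55 and 67.1 at 1380. At 25 mM the second technical replicate of replicate 2 held 11.6 CPM of Angptl4, 76.4 of Acadl and an endothelial sum of 1188. Of the 12 endothelial markers 11 had log2 fold changes below 0, with a median of -1.35 (batch 1 gave -2.53, batch 2 -0.50), and of 10 pericyte markers 9 did, with a median of -1.63. None of the endothelial markers was under 1 CPM in every replicate. The part of these vessel transcripts, or of glial and microglial ones, in the lower Angptl4 and Acadl was not tested.

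Ppargc1a and Acadm were highest in the libraries richest in rod transcripts. The second technical replicate of 25 mM replicate 1 and the first of 25 mM replicate 2 held 87.9 and 69.7 CPM of Ppargc1a and 94.97 and 109.8 CPM of Acadm, beside rod sums of 19650 and 18490 CPM. Both libraries were also among those lowest in Angptl4, Acadl and the endothelial sum. The 25 mM library with the lowest rod sum, 5920 CPM, held 36.2 CPM of Ppargc1a and 42.3 of Acadm. At 5 mM the order was another: the library highest in Ppargc1a, technical replicate 2 of replicate 1, held 41.4 CPM at a rod sum of 4086, and the one with the highest rod sum, 6301, held 25 CPM. All 15 rod markers had log2 fold changes above 0, with a median of 1.06, and 7 passed an FDR of 0.05 in edgeR, against 1.98% of all genes. The part of rod content in Ppargc1a and Acadm was not tested.

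**Figure D3:**
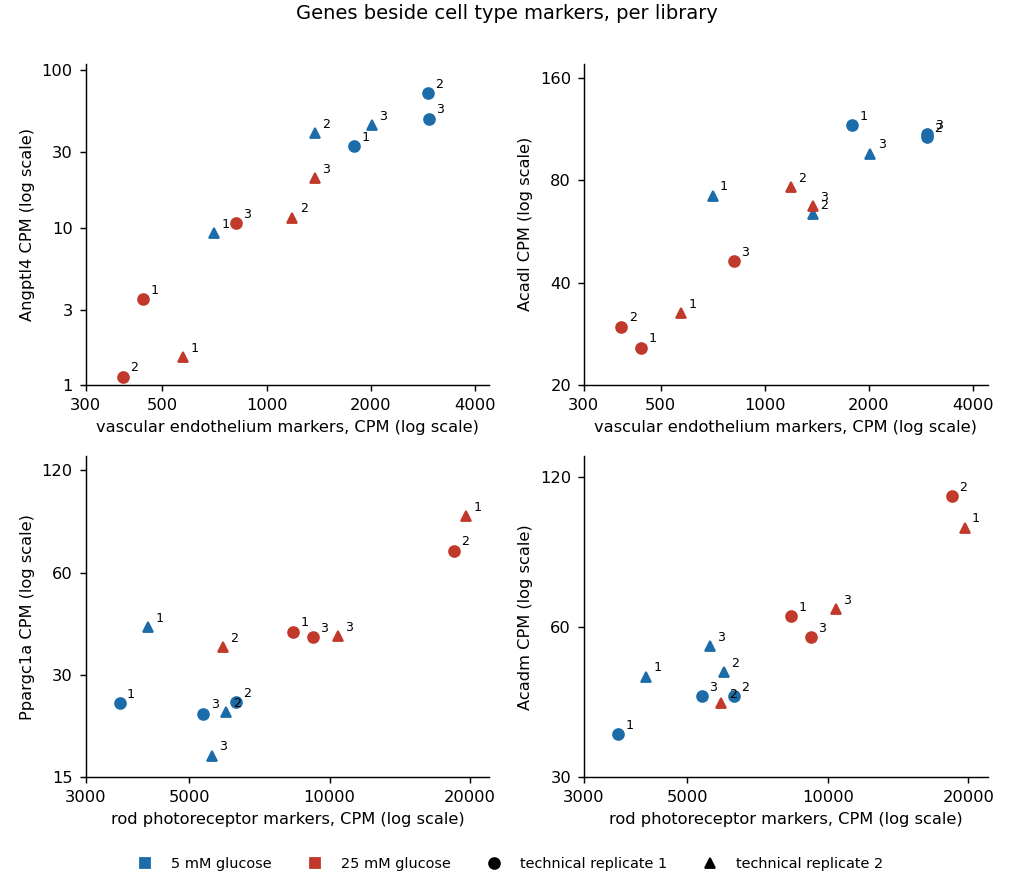
CPM of Angptl4 and Acadl against the summed CPM of 12 vascular endothelial markers (upper panels) and of Ppargc1a and Acadm against that of 15 rod markers (lower panels), on log axes. Each point is one of the 12 libraries, numbered by biological replicate, in blue at 5 mM and red at 25 mM. Angptl4 runs from 1.13 CPM at an endothelial sum of 386 to 71.7 CPM at 2934.

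In batch 1 alone 3 of the 9 genes, Acadl, Ppargc1a and Angptl4, passed an FDR of 0.05 in edgeR, beside 17.3% of the genes tested there. In batch 2 alone none did, and 0% of all genes did. There 1 of the 9 had an unadjusted p under 0.05, beside 11.7% of all genes. The difference between the batches had an unadjusted p under 0.05 in 2 of the 9, Acadl and Hadha, against 16.3% of all genes, and the FDR of that difference lay between 0.188 and 0.992 over the 9 genes. Cpt2, Acadm, Acadl, Hadha, Oxct1, Ppargc1a and Angptl4 were farther from 0 in batch 1, and Cpt1a and Ppara in batch 2.

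The wider pathways were described by lists of genes. Mitochondrial beta-oxidation had 14 of 16 genes below 0, beside 10675 of all 21061 genes tested. Its median log2 fold change was -0.35, and -0.17 after correction for GC content and transcript length. Of these 16, 5 genes below 0 and 1 above had an unadjusted p under 0.05 (28.7% of all genes). The carnitine shuttle had a median of -0.30 over 7 genes and peroxisomal beta-oxidation one of -0.19 over 12 genes. With that correction they stood at 0.04 and 0.05, still below the corrected median of all genes, 0.0923. In the peroxisomal list the lowest was Hsd17b4, the multifunctional enzyme of the pathway, at -0.56 (SE 0.18, edgeR, FDR 0.0990), and the highest was the very-long-chain transporter Abcd2 at 0.60 (SE 0.32, FDR 0.239). The 6 genes of ketone use had a median of 0.12.

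Genes of fatty acid uptake and activation stood on both sides of 0. The acyl-CoA synthetases Acsl1 and Acsl6 were higher at 25 mM in all replicates: Acsl6 held 101, 106 and 95.6 CPM at 5 mM and 211, 148 and 159 CPM at 25 mM (log2 fold change 0.77, SE 0.18, edgeR, FDR 0.0622). Acsl4 and Acsl5 were lower in all replicates, at -0.59 (SE 0.22) and -0.88 (SE 0.33). The brain fatty acid binding protein Fabp7, a glial carrier, held 9.52, 7.83 and 8.91 CPM at 5 mM and 3.27, 3.70 and 4.36 CPM at 25 mM, the lowest of the list at -1.21 (SE 0.25, edgeR, FDR 0.0516). The median of the 11 genes was -0.55, but -0.24 in batch 1, -0.06 in batch 2 and -0.34 with the GC and length correction. Among the 5 genes that set malonyl-CoA, the inhibitor of Cpt1a, the carboxylase Acacb at the mitochondrial membrane had -1.45 (SE 0.52, edgeR, FDR 0.121) and its cytosolic counterpart Acaca 0.43 (SE 0.20, FDR 0.203). Replicates of both carboxylases overlapped between the conditions. Acacb was low, with 1.23, 4.01 and 2.40 CPM at 5 mM and 0.70, 0.57 and 1.49 CPM at 25 mM.

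Ppara itself was higher at 25 mM in all replicates, and 14 of the 16 tested genes on a list of its targets had log2 fold changes below 0. Their median was -0.68, and -0.35 with the GC and length correction. That list holds 4 of the 9 genes, Cpt1a, Acadm, Hadha and Angptl4, and 8 of its 23 genes were under 1 CPM in every replicate, among them the liver targets Cyp4a10, Cyp4a14 and Fgf21. Pdk4, the kinase that holds pyruvate dehydrogenase in check when fatty acids are burnt, held 12.2, 12.4 and 13.9 CPM at 5 mM and 1.79, 3.53 and 5.43 CPM at 25 mM. Its log2 fold change was -1.84 (SE 0.39, edgeR, FDR 0.0540), with no overlap. The lipid droplet coat Plin2 had 250, 437 and 391.9 CPM at 5 mM and 48.8, 173 and 244 CPM at 25 mM, -1.21 on the log2 scale (SE 0.51, FDR 0.161). In the list of 22 receptors and coregulators, by contrast, 11 genes stood above 0 and 11 below, with a median of -0.02.

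Angptl4 is also a target of hypoxia-inducible factors, and 13 of 16 hypoxia targets had log2 fold changes below 0, with a median of -0.46. That median was -0.70 in batch 1, -0.15 in batch 2 and -0.21 with the GC and length correction. Of the 16, 4 had an unadjusted p under 0.05 in edgeR, against 28.7% of all genes, and 0 passed an FDR of 0.05. Their summed CPM overlapped between conditions, with 1097 to 1274 at 5 mM and 911.5 to 1137 at 25 mM. The part of low oxygen in the lower Angptl4 was not tested. The lowest was the prolyl hydroxylase Egln3 at -1.05 (SE 0.44, edgeR, FDR 0.159), which stood at -2.34 in batch 1 and 0.01 in batch 2, and the highest was the demethylase Kdm3a at 0.32 (SE 0.17, FDR 0.254).

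**Figure D4:**
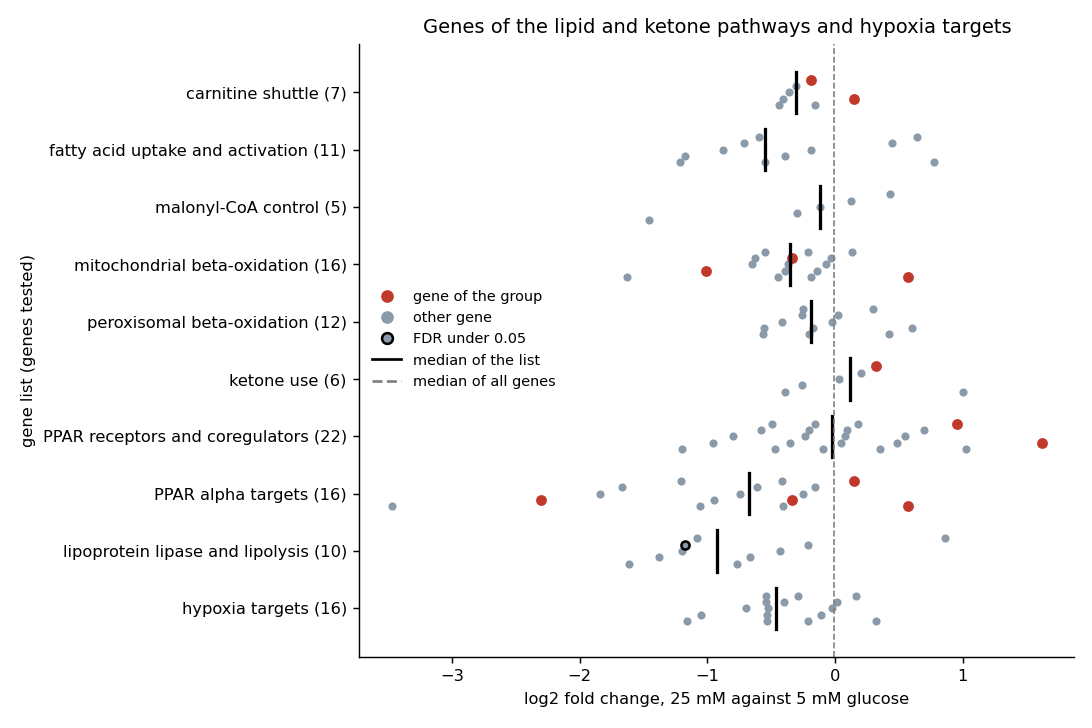
Log2 fold changes, 25 mM against 5 mM glucose, of the tested genes of 9 pathway lists and of hypoxia targets, 1 point per gene. Red points are genes of the group, black rims mark an FDR under 0.05, black bars are list medians and the dashed line is the median of all genes. Lpl, at -1.17, is the one rimmed point, and Angptl4, among the PPAR alpha targets, is the red point farthest to the left at -2.30.

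The transcript table held 55 transcripts of the 9 genes, of which 34 were tested. None passed an FDR of 0.05 in edgeR, as 0% of all 64990 transcripts did, the lowest FDR over all of them being 0.0762. An unadjusted p under 0.05 was found for 13 (7 above 0 and 6 below), against 16.4% of all transcripts. Of the 14 tested transcripts of the 9 genes that keep an intron 12 had log2 fold changes above 0, and 7 were higher at 25 mM without overlap. Over all genes 64.8% of 15157 such transcripts stood above 0, with a median of 0.245, and 20.7% were higher without overlap, while 36.5% of coding transcripts stood above 0, with a median of -0.245.

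In Acadm the coding transcript Acadm-201 held 43.6, 39.6 and 40.04 CPM at 5 mM and 48.3, 52.0 and 45.6 CPM at 25 mM, a log2 fold change of 0.24 (SE 0.16, edgeR, FDR 0.469). Its intron-retaining transcripts summed to 6.97, 6.99 and 8.72 CPM at 5 mM and 17.9, 14.4 and 11.8 CPM at 25 mM. They made up 13.8% to 17.8% of the transcript counts of Acadm at 5 mM and 20.6% to 27.0% at 25 mM. In Hadha Hadha-201, annotated as a processed transcript, had -0.68 (SE 0.25) and the coding Hadha-205 had -0.71 (SE 0.37), while the intron-retaining Hadha-203, Hadha-206 and Hadha-209 had 1.45, 1.27 and 0.95. These 3 stayed at or under 3.09 CPM in every replicate, whereas the more abundant Hadha-208 and Hadha-202 had -0.25 and 0.21. All 5 intron-retaining transcripts of Hadha summed to 19.5 ± 4.82 CPM at 5 mM and 20.7 ± 3.25 CPM at 25 mM (SD, n = 3), a difference within the spread of the replicates.

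Acadl was carried by a single coding transcript, Acadl-201, with 97.4% to 99.8% of its transcript counts and a log2 fold change of -1.03 (SE 0.31). The coding Ppargc1a-203 was higher in all replicates, with 27.5, 15.4 and 15.7 CPM at 5 mM and 61.6, 46.6 and 29.0 CPM at 25 mM (1.23 on the log2 scale, SE 0.37, edgeR, FDR 0.231). Ppargc1a-201, annotated as subject to nonsense-mediated decay, had 0.29 (SE 0.25). For Ppara the coding Ppara-202 had 0.910, 0.945 and 0.522 CPM at 5 mM and 5.32, 2.15 and 3.49 CPM at 25 mM, a log2 fold change of 2.20 (SE 0.46, FDR 0.203). The other tested coding transcript, Ppara-201, stood at -1.40 (SE 1.13, edgeR, FDR 0.556). It was near the floor, with 0.246, 0.484 and 0.848 CPM at 5 mM and 0, 0.402 and 0.197 CPM at 25 mM, and its replicates overlapped. Ppara-201 made up 19.5% to 61.0% of the transcript counts of Ppara at 5 mM and 0% to 11.6% at 25 mM. Both main transcripts of Angptl4 were lower, the coding Angptl4-201 at -1.99 (SE 0.58) and Angptl4-202, a decay target, at -2.49 (SE 0.83).

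**Figure D5:**
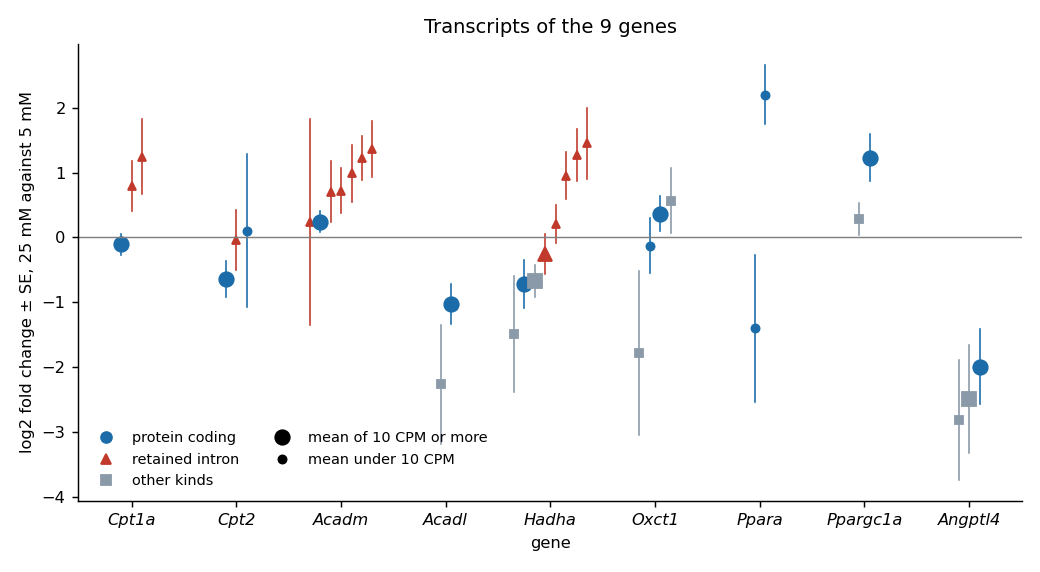
Log2 fold change ± SE, 25 mM against 5 mM glucose, of the 34 tested transcripts of the 9 genes, by annotated kind, with large symbols for a mean of at least 10 CPM. Red triangles, transcripts that keep an intron, mostly lie above 0 in Cpt1a, Acadm and Hadha, while the large coding symbols of these genes lie at 0.24 or lower.

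For each gene the most similar patterns over the 12 libraries were found as the smallest root mean square difference of centred log2 CPM. The difference between the glucose conditions was left in this measure, so genes with like fold changes lie near each other. For Angptl4 these were Angpt2 (0.28), Cxcr4 (0.29) and Tie1 (0.32), against a spread of Angptl4 itself of 1.88. Their log2 fold changes were -2.11, -2.21 and -2.67, beside -2.3 for Angptl4. Tie1 is an endothelial receptor, and the cell source of Angptl4 was not tested. For Acadl they were Cr1l (0.15), Rab31 (0.16) and Hsp90ab1 (0.17), against a spread of 0.73. Ppargc1a lay nearest to Vldlr (0.16), Nim1k (0.16) and Cadm2 (0.17), with a spread of its own of 0.65, and Acadm nearest to Slc16a6 (0.14), Mpdz (0.16) and Ybx3 (0.17), with 0.46. Hadha was closest to Colgalt1 (0.08), Anxa7 (0.09) and the carnitine transporter Slc22a5 (0.09), with a spread of only 0.24. Cpt1a lay nearest to Aff1, Atf7 and Neu3 (0.14 to 0.16), Cpt2 to Adi1, Kdelc1 and Ppp1ccb (0.20 to 0.21), and Oxct1 to Ccpg1, Stxbp4 and Eid2b (0.12 to 0.14). The low counts of Ppara gave looser matches, AC113961.1 (0.36), Iqch (0.39) and Gm29266 (0.41), against 0.94.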

How the data were processed

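RNA was measured in 12 libraries of mouse retinal explants. Per the labels and the study's methods they were prepared from 4 ng of total RNA with a stranded kit, 13 cycles of amplification and paired reads of 101 bases, and the submitters' processing notes name GRCm38. The authors deposited expected counts (estimated counts) per gene and per transcript, not normalized. The counting tool and its use of strand are not given in the sources used here. Amplified reads are not independent molecules, so depth limits counting error only. The technical replicates of each biological replicate were summed and rounded, normalized by TMM and filtered with filterByExpr. Conditions, 3 replicates each, were tested by quasi-likelihood in edgeR 4.0.16 in its version 3 form under R 4.3.3, adjusted by Benjamini-Hochberg over 21061 genes. P-values measure the spread between the labelled biological replicates, whose origin from separate animals is not stated. In an exact permutation test 3 against 3 samples cannot give a p below 0.1. CPM use TMM factors, and TPM were computed from the transcript table and annotated lengths. DESeq2 1.42.0 and limma 3.58.1 served as alternatives. Symbols, positions and transcript kinds came from a GENCODE annotation of GRCm38 that matched 90.8% of genes. This comparison was also run on simulated data, with 21077 genes and a biological coefficient of variation of 0.3 (0.297 here). The variation was the same for every simulated gene, and the changed genes were drawn from those above a count minimum. There 188 of 200 genes changed 4-fold, up or down, were recovered, with 6 false calls. Recovery at the fold changes measured for the 9 genes was not tested. The genes and lists were chosen with earlier results of these data known. Named by rule were the 9 genes, their partners, and of each pathway list genes with an FDR under 0.05 and the highest and lowest with at least 1 CPM on average. Some genes that this rule names are not reported here. Esrrb, Esrrg, Acsl1, Acsl4, Acsl5, Ppard, Pparg and Plin2 were added after their values were seen.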

Additional observations from a re-analysis of the deposited data

Results flagged for a closer look

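Each of the 9 genes was screened in both conditions for a single library far from the other 5 by Dixon's test at 6 libraries, 18 groups in all. With independent libraries and groups, chance alone would give about 0.9 groups, but technical replicates share a sample and the genes share libraries. The 3 groups found cannot be weighed against that number. All were at 5 mM glucose and all from second technical replicates. Cpt2 was 9.14 CPM in 5 mM replicate 2, technical replicate 2, while the other 5 libraries held 18.6 to 23.3. Oxct1 was 200.9 CPM in 5 mM replicate 1, technical replicate 2, against 98.8 to 130 in the others. Ppargc1a was 41.43 CPM in that same library, against 17.4 to 25.0. With 5 mM replicate 1 taken from its first technical replicate alone, Ppargc1a had a log2 fold change of 1.08. There it passed an FDR of 0.05 in edgeR, as did 8.27% of all genes tested. Ppara and Angptl4, which had no flagged library, passed in that setting as well.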

How the results depend on the processing

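None of the 9 genes was called at an FDR of 0.05 in the reported comparison, but the count rose to 5 with DESeq2, 5 with the GC content and length correction and 5 at an FDR of 0.10. It was 4 with no filter on low counts and 3 in batch 1 alone and with 5 mM replicate 1 from its first technical replicate. With 12 libraries as separate samples it was 4, but that fit counts technical replicates as independent. Limma-voom over 12 libraries, which modelled the correlation of technical replicates, gave 1. The count was also 1 with the newer quasi-likelihood method, with at least 1 CPM in 3 replicates and with transcript counts summed. The count stayed at 0 with RLE size factors, library totals, limma-voom on the biological replicates and technical replicates scaled to equal depth. It was also 0 in batch 2 alone and with 25 mM replicate 2 from either technical replicate. At least 1 of the 9 genes was called in 14 of the 25 settings. Leaving out 1 replicate gave 0 to 5, with 5 without 5 mM replicate 1, 2 without 25 mM replicate 3 and 0 without any other. Over all genes the 417 calls became 3489 with DESeq2, 1979 without a filter, 2918 over 12 libraries, 3279 in batch 1, 0 in batch 2, 2600 with the GC and length correction, 1731 with 5 mM replicate 1 from its first technical replicate, 169 and 0 with 25 mM replicate 2 from its first or second, 3035 at an FDR of 0.10, 0 at an FDR of 0.01 with a fold over 2, and 0 to 5845 when 1 replicate was left out (5845 without 5 mM replicate 1). With the replicate block 2 of the 9 genes and 990 of all were called, and 4 and 3093 with the block and the GC and length correction together. In their deviations from the condition means the same-numbered samples correlated at -0.01375, -0.4485 and 0.2848, and only 5 mM replicate 3 correlated best with its own number. Such correlations cannot decide whether same-numbered samples were paired in the design, which the labels do not state. The number of genes without overlap, 6, became 1 over 12 libraries in both such fits and 2 in batch 2. The median of 0.15 became -0.0047 in batch 1, 0.369 with the GC and length correction, 0.366 with the block added and 0.00763 with transcript counts summed. Over all genes the median was 0.0923 with the GC and length correction and 0.097 with the block added. Cpt1a reversed to -0.0047 in batch 1, and Cpt2 to 0.181 in batch 2, 0.0394 with the GC and length correction and 0.073 with the block added. The cause of these shifts was not tested. The other 221 of 225 values, over 25 settings, kept their direction, and 41 passed an FDR of 0.05. No transcript of the 9 genes was called in any alternative run. Ppara rests on 19 to 133 estimated counts per library, and its transcript sums covered 59.3% to 122% of its gene counts.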

Other observations

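Ratios between 2 genes of the same replicate do not depend on how libraries are scaled. They were chosen after the values were seen and carry no test. The log2 ratio of Acadm to Acadl was -1.24, -0.94 and -1.04 in the replicates at 5 mM glucose and 1.44, 0.19 and 0.10 at 25 mM, a mean difference of 1.65 with a wider spread at 25 mM (SD 0.75 against 0.15). The log2 ratio of Ppara to its target Angptl4 was -4.38, -5.37 and -4.68 at 5 mM and 0.86, -0.37 and -2.37 at 25 mM, a mean difference of 4.19. By contrast, the ratio of Cpt1a to Cpt2, the outer and inner transferases of the shuttle, differed by 0.33 (SD 0.39 at 5 mM and 0.23 at 25 mM), and that of Hadha to its partner subunit Hadhb by -0.30 (SD 0.38 and 0.24), both within the spread of the replicates.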
